A study of Mus with 96 samples.

Results

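The mu-class glutathione S-transferases of the mouse, Gstm1 to Gstm7, were followed through the liver transcriptomes of mice with and without Bmal1 in hepatocytes. All 7 genes of that name were taken by symbol from the 55487 genes of the count table, whatever their values, and all 7 passed the filter on low counts (at least 100 counts summed over the 96 libraries, met by 15548 genes). The family was put forward with earlier results of these data known, so the tests of genotype, diet and time below place the members in the fit over all genes and are not independent evidence. Sex played no part in the choice.

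Hep-Bmal1KO mice carried floxed Bmal1 alleles on both chromosomes together with a Cre transgene under the albumin promoter, which acts in hepatocytes. Their Cre-negative littermates (Hep-Bmal1WT) carried the same floxed alleles and were the controls. Mice of both sexes entered the study at 8 to 10 weeks of age, lived under 12 hours of light and 12 hours of dark, and for 2 weeks ate either normal chow (NC, 14% fat) or cdHFD, which is deficient in choline and held 60% fat and 2% cholesterol. Livers were collected every 4 hours from 2 hours after lights on (zeitgeber time, ZT, 2) to ZT22, with 4 animals for each genotype, diet and ZT, and each animal gave 1 library by bulk RNA barcoding and sequencing (BRB-seq), which reads the 3′ ends of mRNA. Whole liver was used, so hepatocytes were measured together with cells in which Cre is not active, and fewer cells of a type cannot be told apart from less RNA per cell.

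Libraries held between 1861740 and 9718615 counts in genes. Arntl, the gene of BMAL1, was still read in Hep-Bmal1KO livers, and reads at a transcript's 3′ end need not cover the deleted part, so its level does not check the label in every library: in NC it was higher in Hep-Bmal1WT at some times and lower at others. At ZT22 it was 17.5 ± 4.05 CPM (a gene's count scaled to the library's total; mean ± SD, n = 4) in Hep-Bmal1WT and 8.43 ± 1.04 in Hep-Bmal1KO, and at ZT10 it was 0.748 ± 0.463 and 5.77 ± 3.81. Each library was placed between the genotypes by clock genes and by 20 other genes (no Gstm gene among them). Those 20 had the smallest genotype p (edgeR) at the other ZTs of the same diet, with the library's own ZT left out. Some libraries lay nearer to the genotype opposite to their label by 1 measure only, and were kept throughout. By both measures, 7 of the 96 libraries lay nearer to the opposite genotype. In NC these were 2 labelled Hep-Bmal1WT (ZT6 replicate 2 and ZT18 replicate 4) and 2 labelled Hep-Bmal1KO (ZT6 replicate 4 and ZT10 replicate 3). In cdHFD they were 2 labelled Hep-Bmal1WT (ZT10 replicate 3 and ZT14 replicate 1) and 1 labelled Hep-Bmal1KO (ZT14 replicate 1). Values are given as labelled and, where it matters, without these 7 libraries. Because they were picked on genes that respond to genotype, a smaller spread after leaving them out follows in part from the choice. Each of the 12 plate columns held libraries of 1 genotype and 1 diet only, so plate column and group cannot be told apart. Y-linked genes matched the labelled sex in every library, and 1 library labelled female had little Xist.

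Glutathione S-transferases couple the tripeptide glutathione to reactive compounds, which makes them soluble and ready for export from the cell. The mu class is a cytosolic, dimeric class that is abundant in rodent liver, where it handles epoxides, quinones and products of lipid peroxidation. Several mu-class genes are known targets of NRF2, the factor of the oxidative stress response, and of CAR, a nuclear receptor for drugs. The genes stand side by side and arose by duplication, so their transcripts are much alike.

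In the GRCm38.p6 annotation (the same assembly as the mm10 build of the counts) the 7 genes filled 149 kb of chromosome 3, from chr3:107895854 to chr3:108045179. Their order was Gstm5 (chr3:107895854-107898685), Gstm7 (chr3:107926334-107931877), Gstm6 (chr3:107938847-107953641), Gstm3 (chr3:107963696-107969174), Gstm2 (chr3:107981702-107986420), Gstm1 (chr3:108012250-108017973) and Gstm4 (chr3:108030571-108045179). Reads were counted per gene, and which exons they fell in is not recorded. The table listed 0 reads as ambiguous or as aligned to more than 1 place, and the sources do not say how a read that matches several of these genes was treated. A part of the reads of 1 member may therefore be counted at another. The pseudogene Gstm2-ps1, on another chromosome, stayed at or below 13.9 CPM in every library.

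The family's transcripts differed widely in level. Over the 96 libraries Gstm1 averaged 3652 CPM, followed by Gstm3 at 778 CPM, Gstm2 at 245 CPM, Gstm6 at 158 CPM, Gstm7 at 67.7 CPM, Gstm4 at 62.6 CPM and Gstm5 at 22.1 CPM. These levels are 3′ end counts and were not divided by gene length, since a transcript gives reads near its end only. Gstm1 lay at the 99.8th percentile of mean CPM among the genes kept, and even Gstm5, whose counterpart is known from brain and testis, lay at the 72.4th percentile. Gstm1 exceeded Gstm3, and Gstm6 exceeded Gstm7, in 24 of 24 libraries of every genotype and diet. The places of Gstm7 and Gstm4 did not separate in Hep-Bmal1WT livers, where Gstm7 was the higher in 12 of 24 libraries in NC and in 12 of 24 in cdHFD. The places of Gstm2 and Gstm6 changed with the group: Gstm2 was the higher in 5 of 24 Hep-Bmal1WT libraries in NC, in 21 of 24 Hep-Bmal1KO libraries in NC, and in 24 of 24 in both genotypes in cdHFD.

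**Figure D1:**
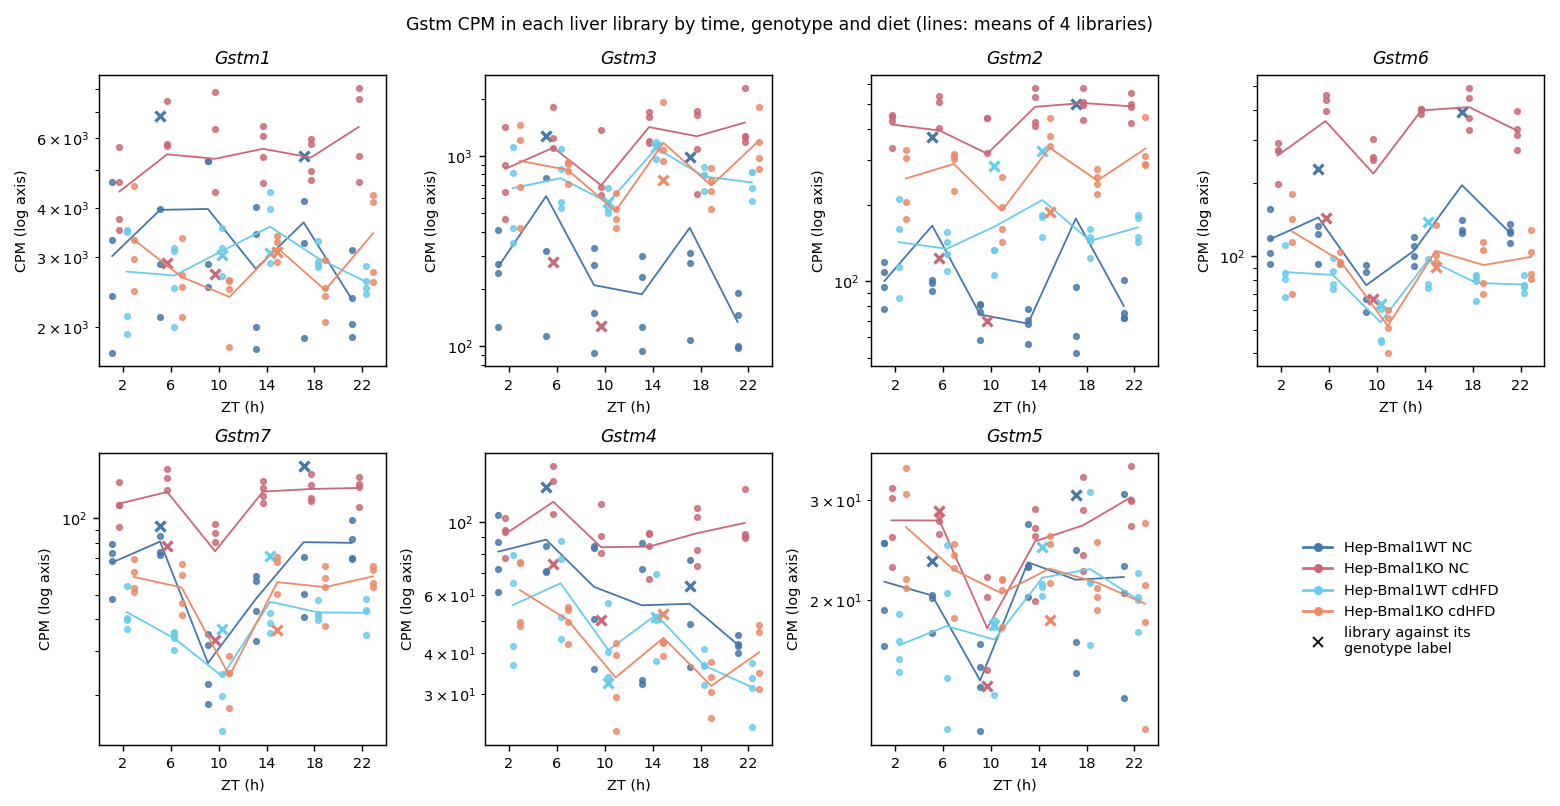
CPM (log axis) of each Gstm gene against ZT in hours. Points are single livers, set apart sideways by group, lines join the means of 4 livers, colors give genotype and diet, and crosses are the 7 libraries that lay nearer to the opposite genotype. In NC the Hep-Bmal1KO line runs above the Hep-Bmal1WT line at all 6 ZTs for every member, while in cdHFD it does so at all 6 ZTs for Gstm2 and Gstm7, and the lines of the genotypes cross for the other members.

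In NC, every member was higher in Hep-Bmal1KO than in Hep-Bmal1WT livers, with Gstm2 and Gstm3 about 4-fold higher and Gstm5 least changed. In the fit over all genes (edgeR quasi-likelihood test with ZT as a factor, Benjamini-Hochberg adjusted p under 0.05), 7 of 7 members passed as higher, against 12.6% of all genes called and 7% called higher. The median log2 difference of the members was 0.94 and that of all genes -0.01. The differences of single members ranged from 0.33 to 2.05 on the log2 scale, so the paralogs did not move by 1 common factor.

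Gstm2 was among the genes with the smallest p-values of the whole table, at rank 4. Its CPM ran from 52.1 over a median of 78.9 to 500 in the 24 Hep-Bmal1WT livers, and from 69.6 over a median of 444 to 579 in the 24 Hep-Bmal1KO livers. The groups overlapped through few libraries. The highest Hep-Bmal1WT values, 500 and 372 CPM, and the lowest Hep-Bmal1KO values, 69.6 and 124 CPM, all came from the 4 NC libraries named above. The log2 difference was 2.05 ± 0.21 (SE), a 4.15-fold difference, and 2.52 ± 0.08 without those libraries. All 22 remaining Hep-Bmal1KO livers then lay above all 22 Hep-Bmal1WT livers, which held for 0.0836% of all genes.

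Gstm6 behaved alike at a lower level. It ran from 59.2 over a median of 119 to 390 CPM in Hep-Bmal1WT and from 67.1 over a median of 331 to 491 CPM in Hep-Bmal1KO. Its log2 difference was 1.38 ± 0.13, and 1.61 ± 0.08 without the 4 libraries, where again all 22 Hep-Bmal1KO livers exceeded all 22 Hep-Bmal1WT livers. It ranked 2 by p in the whole table.

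Gstm3, an inducible member, had as large a fold difference as Gstm2 with a wider spread. Hep-Bmal1WT livers held from 92.4 over a median of 238 to 1265 CPM, and Hep-Bmal1KO livers from 128 over a median of 1193 to 2279 CPM. The log2 difference was 2.03 ± 0.28, or 4.08-fold, and 2.43 ± 0.22 without the 4 libraries. The groups still overlapped then, with 17 of 22 Hep-Bmal1KO livers above the highest Hep-Bmal1WT liver.

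Gstm7, the neighbor of Gstm6, ran from 18.5 over a median of 68.2 to 161 CPM in Hep-Bmal1WT and from 33.2 over a median of 121 to 157 CPM in Hep-Bmal1KO. The difference was 0.94 ± 0.12 (log2), or 1.92-fold. Leaving out the 4 libraries gave 1.12 ± 0.09, with 18 of 22 Hep-Bmal1KO livers above all Hep-Bmal1WT livers.

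Gstm1, the major hepatic form, ran from 1720 over a median of 3006 to 6850 CPM in Hep-Bmal1WT and from 2728 over a median of 5547 to 8049 CPM in Hep-Bmal1KO. Its fold difference was modest, 0.73 ± 0.14 (log2) or 1.66-fold, and 0.92 ± 0.12 without the 4 libraries. The groups overlapped widely, and 22 of 24 Hep-Bmal1KO livers lay above the Hep-Bmal1WT median. In absolute terms Gstm1 nonetheless made up 59.6% of the rise of the family's summed mean, from 3991 to 7577 CPM, and Gstm3 made up 23.3% of it.

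The remaining members moved least. Gstm4 had medians of 67.2 CPM in Hep-Bmal1WT and 92.2 CPM in Hep-Bmal1KO, a log2 difference of 0.58 ± 0.12. Gstm5 had medians of 20.3 and 26.9 CPM, a log2 difference of 0.33 ± 0.08. For both, single livers of the genotypes overlapped over most of their range.

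The make-up of the family changed along with its sum. The share of Gstm1 in the summed CPM had a median of 82.7% in Hep-Bmal1WT and of 70.7% in Hep-Bmal1KO livers in NC. The median share of Gstm3 was 5.6% and 14.6%, respectively. Counting the 7 genes as 1 summed gene gave a log2 difference of 0.94, a value that does not depend on how reads were divided among them.

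**Figure D2:**
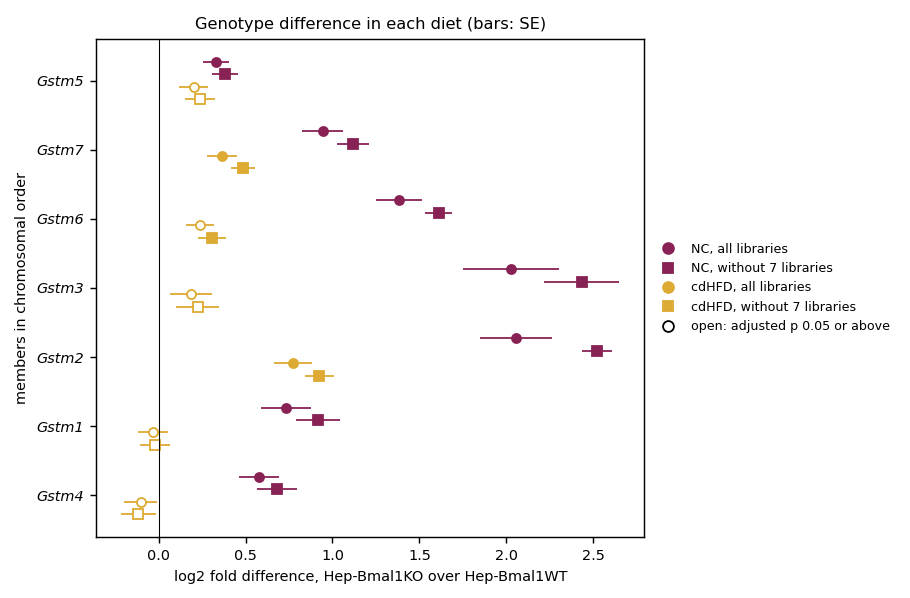
Log2 fold difference of Hep-Bmal1KO over Hep-Bmal1WT for each Gstm gene, in chromosomal order, in NC and in cdHFD, with all libraries (circles) and without the 7 libraries nearer to the opposite genotype (squares). Bars are SE and open symbols did not pass the test. In NC the differences run from 0.33 (Gstm5) to 2.05 (Gstm2), and in cdHFD from -0.10 (Gstm4) to 0.77 (Gstm2).

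The genotype difference in NC had the same sign at all 6 ZTs for all 7 members. Within single ZTs, with 4 livers against 4, members passed the test at ZT10 (3 of 7), ZT14 (4 of 7) and ZT22 (5 of 7), against 1.42%, 3.06% and 0.482% of all genes. At ZT2, ZT6 and ZT18, 0 of 7 passed with edgeR, where 0.135%, 0% and 0.00643% of all genes did, and 4, 4 and 5 of 7 had an unadjusted p under 0.05. Libraries nearer to the opposite genotype by both measures were present at ZT6, ZT10 and ZT18, and absent at ZT2, ZT14 and ZT22. At ZT2 and ZT22 some libraries lay nearer to it by 1 measure only.

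At ZT14, Gstm2 stood at 56.4, 67.7, 70.6 and 77.4 CPM in Hep-Bmal1WT and at 411, 424, 535 and 579 CPM in Hep-Bmal1KO. Gstm6 stood at 91.6, 100.2, 111 and 119.8 CPM in Hep-Bmal1WT and at 383, 399, 402 and 402 CPM in Hep-Bmal1KO. At ZT22, Gstm3 stood at 97.9, 101, 147 and 192 CPM in Hep-Bmal1WT and at 1183, 1255, 1273 and 2279 CPM in Hep-Bmal1KO. In each case the lowest Hep-Bmal1KO liver lay well above the highest Hep-Bmal1WT liver. The log2 differences were 2.83 ± 0.50 for Gstm2 and 1.90 ± 0.33 for Gstm6 at ZT14, and 3.48 ± 0.64 for Gstm3 at ZT22. All 4 Hep-Bmal1KO livers lay above all 4 Hep-Bmal1WT livers for 6 of 7 members at ZT22, 5 at ZT14 and 4 at ZT2, where 3.51%, 5.35% and 2.93% of all genes showed that pattern. The same held for 1 member at ZT6 (2.3% of all genes), for 0 at ZT10 (2.73%) and for 0 at ZT18 (1.95%).

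In cdHFD most members did not differ by genotype past the test. Gstm2 and Gstm7 passed the test as higher in Hep-Bmal1KO livers, 2 of 7 members, against 9.61% of all genes called, 4.62% higher and 4.99% lower. Gstm2 had medians of 149 CPM in Hep-Bmal1WT and 283 CPM in Hep-Bmal1KO, with 23 of 24 Hep-Bmal1KO livers above the Hep-Bmal1WT median, and differed by 0.77 ± 0.11 (log2), and by 0.92 ± 0.08 without the 3 cdHFD libraries nearer to the opposite genotype. Gstm7 had medians of 39.1 and 53.5 CPM and differed by 0.37 ± 0.09, and by 0.49 ± 0.07 without those libraries. The Gstm7 call was lost without replicate 2 of each group (0.30, adjusted p = 0.11) and in males alone (0.31, adjusted p = 0.11).

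The other members did not pass in cdHFD. Gstm6 differed by 0.24 ± 0.08 (edgeR adjusted p = 0.055) and lay at the threshold, since it passed with the DESeq2 Wald test (adjusted p = 0.039) and without the 3 cdHFD libraries nearer to the opposite genotype (0.31 ± 0.08, adjusted p = 0.0047). Gstm5 differed by 0.20 ± 0.08, Gstm3 by 0.19 ± 0.12, Gstm1 by -0.03 ± 0.08 and Gstm4 by -0.10 ± 0.09. The Gstm1 ranges nearly coincided, from 1917 to 4386 CPM in Hep-Bmal1WT and from 1784 to 4538 CPM in Hep-Bmal1KO. At single ZTs only Gstm2 at ZT6 passed (0.843% of all genes did at that time), and 0 of 7 members did with edgeR at ZT2 (1.29%), ZT10 (0.0129%), ZT14 (0%), ZT18 (0.129%) and ZT22 (0.199%), with 4, 1, 1, 1 and 4 of 7 at an unadjusted p under 0.05. All 4 Hep-Bmal1KO livers lay above all 4 Hep-Bmal1WT livers for 3 members at ZT22 (3.55% of all genes), 2 at ZT6 (4.01%), 1 at ZT2 (2.1%) and 1 at ZT18 (3.09%), and for 0 at ZT10 (2.62%) and ZT14 (1.23%). The reverse was seen for Gstm1 at ZT10, where all 4 Hep-Bmal1KO livers lay below all 4 Hep-Bmal1WT livers. Its log2 difference there was -0.39 ± 0.19 (edgeR adjusted p = 0.43). The share of all genes with this reverse pattern was not counted. Some markers of cell types moved with genotype, where in NC 7% of all genes were higher and 5.61% lower. Of 5 measured cholangiocyte markers 2 were higher in Hep-Bmal1KO livers in NC and 3 in cdHFD, with summed levels of 33.2 to 144 and 60.7 to 145 CPM in NC and of 52.1 to 215 and 69.7 to 750 CPM in cdHFD for Hep-Bmal1WT and Hep-Bmal1KO. Of 8 stellate cell and fibroblast markers 0 were higher in NC and 5 in cdHFD, where they summed to 527 to 1102 CPM in Hep-Bmal1WT and to 506 to 1673 CPM in Hep-Bmal1KO. Of 8 hepatocyte markers 1 was lower in NC and 2 were lower in cdHFD. In NC their sum had a median of 154468 CPM (94812 to 211600) in Hep-Bmal1WT and 106423 CPM (81695 to 213773) in Hep-Bmal1KO. These ranges overlapped widely, and the median log2 difference of the 8 markers in NC was -0.0072. In cdHFD 2 of 8 macrophage markers were higher and 1 lower. Both zonal lists of hepatocyte markers held lower genes in cdHFD, 2 of 8 pericentral and 2 of 7 periportal markers, with 0 and 1 higher. In NC each of these lists had 1 higher and 1 lower. Of all genes 4.62% were higher and 4.99% lower in cdHFD. Their part in the Gstm results was not tested.

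Members responded to the diet in opposite directions in Hep-Bmal1WT livers. Gstm3 and Gstm2 rose with cdHFD, while Gstm7, Gstm6 and Gstm4 fell, and Gstm1 and Gstm5 did not pass the test. That made 5 of 7 members called, against 55.7% of all genes, with 28.7% of all genes called higher and 27% lower. Gstm3 went from a median of 238 CPM (92.4 to 1265) in NC to 792 CPM (351 to 1187) in cdHFD, a log2 difference of 1.498 ± 0.229. Gstm2 went from 78.9 CPM to 149 CPM, a difference of 0.62 ± 0.20, and its call was lost without replicate 3 (0.52, adjusted p = 0.076) and in females alone (0.51, adjusted p = 0.10). Gstm6 and Gstm7 fell by 0.65 ± 0.11 and 0.66 ± 0.12 on the log2 scale, to medians of 77 and 39.1 CPM. Gstm4 fell by 0.46 ± 0.11, to a median of 40.9 CPM, and its call was lost without replicate 2 (-0.26, adjusted p = 0.090). The Gstm1 difference was -0.14 ± 0.13, and it passed in males alone (-0.27, adjusted p = 0.030) and without replicate 3 (-0.30, adjusted p = 0.047).

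In Hep-Bmal1KO livers, by contrast, no member was higher in cdHFD. Of the 7 members 6 fell, against 61.9% of all genes called, 32.4% higher and 29.6% lower. The largest fall was that of Gstm6, from a median of 331 CPM (67.1 to 491) in NC to 94 CPM (40.2 to 180) in cdHFD, and it decreased by 1.80 ± 0.12 on the log2 scale. Gstm7 fell by 1.25 ± 0.09 from a median of 121 to 53.5 CPM, and Gstm4 by 1.14 ± 0.09 from 92.2 to 42.9 CPM. Gstm1 fell by 0.91 ± 0.10, from a median of 5547 CPM (2728 to 8049) to 2733 CPM (1784 to 4538), and made up 76.9% of the fall in the family's summed mean. Gstm2 fell by 0.67 ± 0.13 and Gstm5 by 0.21 ± 0.08. Gstm3 differed by -0.36 ± 0.17 and did not pass (adjusted p = 0.069), but did without the libraries nearer to the opposite genotype (-0.44 ± 0.14, adjusted p = 0.0072).

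**Figure D3:**
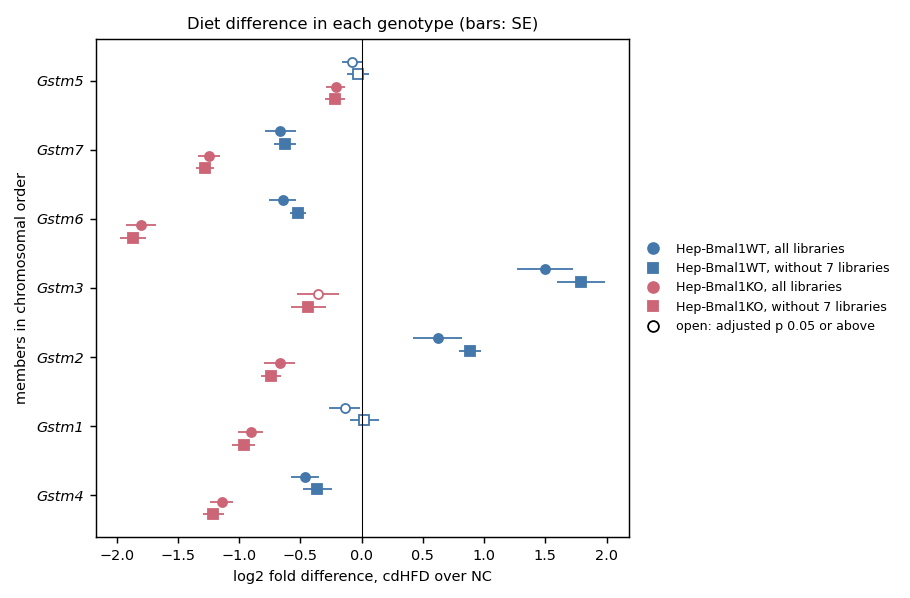
Log2 fold difference of cdHFD over NC for each Gstm gene, in chromosomal order, in Hep-Bmal1WT and Hep-Bmal1KO livers, with all libraries (circles) and without the 7 libraries nearer to the opposite genotype (squares). Bars are SE and open symbols did not pass the test. Gstm3 lies at 1.498 in Hep-Bmal1WT and at -0.36 in Hep-Bmal1KO, and Gstm6 at -0.65 and -1.80.

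Markers of cell types also differed between the diets. The summed level of 8 hepatocyte markers had a median of 154468 CPM in NC and 76303 CPM in cdHFD in Hep-Bmal1WT livers, and of 106423 and 64023 CPM in Hep-Bmal1KO livers, with 8 of 8 markers lower in both genotypes. The ranges over livers were 94812 to 211600 and 55776 to 93393 CPM in Hep-Bmal1WT, and 81695 to 213773 and 49866 to 85855 CPM in Hep-Bmal1KO. The 8 macrophage markers, all higher with cdHFD, summed to medians of 387 and 1873 CPM in Hep-Bmal1WT and of 365 and 2055 CPM in Hep-Bmal1KO. Of all genes, 28.7% passed as higher and 27% as lower with cdHFD in Hep-Bmal1WT, and 32.4% and 29.6% in Hep-Bmal1KO. Of 8 stellate cell and fibroblast markers, 7 were higher with cdHFD in Hep-Bmal1WT and 8 in Hep-Bmal1KO. Their part in the diet differences of Gstm genes was not tested.

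The genotype difference itself changed with the diet. In the fit over all 96 libraries the genotype by diet term passed for 6 of 7 members, all toward a smaller difference in cdHFD, against 3.04% of all genes called and 2% called lower. It came to -1.84 ± 0.30 (log2) for Gstm3, -1.28 ± 0.23 for Gstm2, -1.15 ± 0.16 for Gstm6, -0.76 ± 0.17 for Gstm1, -0.68 ± 0.15 for Gstm4 and -0.58 ± 0.15 for Gstm7. Gstm6 had the smallest p of the 15548 genes. For Gstm5 the term was -0.13 ± 0.11 (adjusted p = 0.62). The count fell to 3 of 7 without replicate 1 and in females alone, with Gstm1, Gstm4 and Gstm7 lost in the first case and Gstm2, Gstm4 and Gstm7 in the second. Without replicate 2 Gstm7 was lost. As 1 summed gene, the family differed by genotype by 0.94 in NC and by 0.07 in cdHFD (adjusted p = 0.73).

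Sex was an independent question, since it had no part in choosing the genes. Gstm1, Gstm3 and Gstm4 were lower in females and Gstm5 was slightly higher, in a fit with each genotype, diet and ZT as its own level. That made 4 of 7 members, against 17.2% of all genes called, 8.99% higher in females and 8.24% lower. Gstm3 was lower by 0.53 ± 0.13 on the log2 scale (edgeR adjusted p = 0.0013), Gstm1 by 0.33 ± 0.07 (adjusted p = 0.00047) and Gstm4 by 0.28 ± 0.07 (adjusted p = 0.0014). Gstm5 was higher by 0.15 ± 0.05 (adjusted p = 0.040), a call that was lost in each fit without 1 of the replicate numbers (adjusted p from 0.078 to 0.24) and without a filter on low counts (adjusted p = 0.060). Gstm6 differed by -0.18 ± 0.08 (adjusted p = 0.0995), and passed without the 7 libraries (-0.16 ± 0.05, adjusted p = 0.015). Gstm2 (0.12 ± 0.11) and Gstm7 (0.08 ± 0.07) did not pass.

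In Hep-Bmal1WT livers in NC, Gstm1 ran from 2375 over a median of 4002 to 6850 CPM in 12 males, and from 1720 over a median of 2074 to 5404 CPM in 12 females, where both highest values came from libraries nearer to the opposite genotype. Gstm3 had medians of 286 CPM in those males and 120 CPM in those females. Gstm4 had medians of 80.1 and 48.1 CPM. In Hep-Bmal1KO livers in NC the Gstm1 medians were 5741 CPM in males and 4837 CPM in females, and in cdHFD they were 2616 and 2834 CPM, so the order of the sexes was not the same in every group. Of the markers of cell types, 5 of 6 endothelial and 4 of 8 pericentral hepatocyte markers were higher in females, beside 8.99% of all genes. The part of these markers in the sex differences of Gstm genes was not tested.

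Whether the genotype difference depended on sex was tested as a genotype by sex term within each diet. In NC, 0 of 7 members passed with edgeR, with 2 of 7 at an unadjusted p under 0.05, against 0.341% of all genes called. In cdHFD 0 of 7 passed, again with 2 of 7 at an unadjusted p under 0.05, against 0% of all genes. The smallest p in cdHFD was that of Gstm4, with a term of 0.53 ± 0.16 (edgeR adjusted p = 0.35). Without the cdHFD libraries nearer to the opposite genotype it was 0.58 ± 0.17 (adjusted p = 0.14). Within NC the smallest p was that of Gstm1. Its genotype difference was 0.52 (log2) in males alone and 1.02 in females alone, and the term was 0.59 ± 0.23 (adjusted p = 0.38). Without the 4 NC libraries the Gstm1 term was 0.84 ± 0.17 (adjusted p = 0.0053), against 0.605% of all genes then called. The Gstm1 result therefore turned on those libraries, 3 of which were from females.

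**Figure D4:**
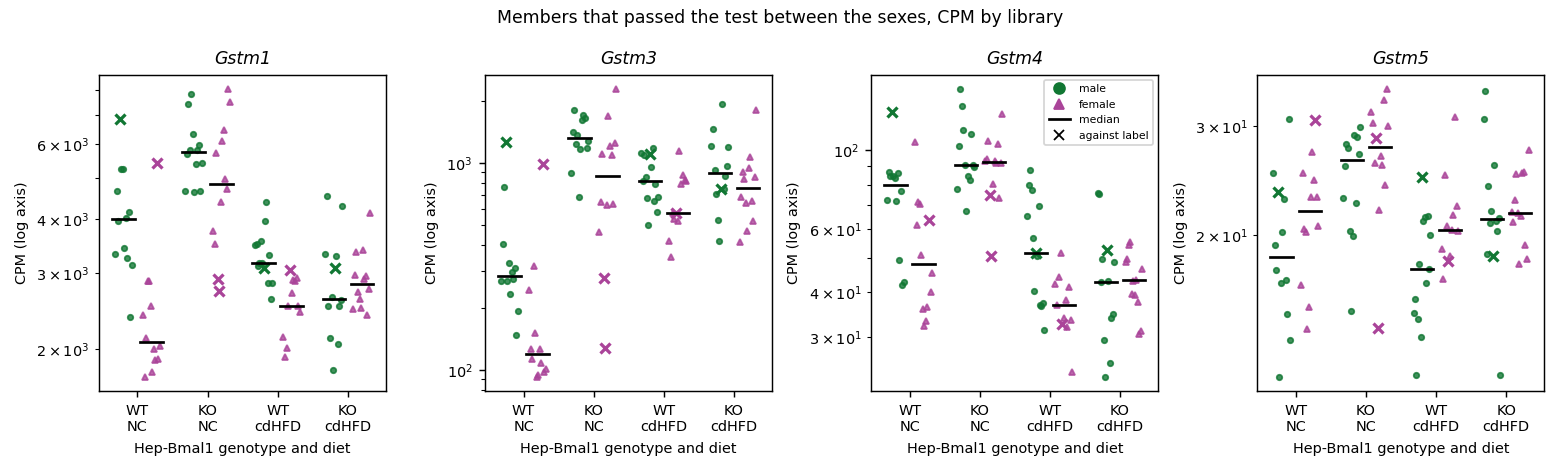
CPM (log axis) of the 4 Gstm genes that passed the test between the sexes, for each genotype and diet. Points are single livers of males (green circles) and females (purple triangles), black lines are medians, and crosses are libraries nearer to the opposite genotype. In Hep-Bmal1WT livers in NC the Gstm1 medians are 4002 CPM in males and 2074 CPM in females.

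Few members passed a test of daily rhythm. A 24-hour cosine curve was fitted in each genotype and diet. In Hep-Bmal1WT livers in NC, 1 of 7 members passed, against 19.1% of all genes: Gstm7, with an amplitude of 0.58 ± 0.16 on the log2 scale, a peak at ZT23.3 and an adjusted p of 0.038. Its CPM was lowest at ZT10, at 18.5 to 34.9 CPM over 4 livers, and reached 68.8 to 98.3 CPM at ZT22, with no overlap between these times. That call was lost without replicate 1, 2 or 3 (adjusted p from 0.053 to 0.18). Without the 2 Hep-Bmal1WT libraries nearer to the opposite genotype, Gstm2 (adjusted p = 0.014) and Gstm6 (adjusted p = 0.036) passed beside Gstm7 (adjusted p = 0.0076). Of all genes 17.1% then passed.

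In the other groups 0 of 7 members passed with edgeR, or with an F test of the cosine fit on transformed values: Hep-Bmal1KO in NC (4.34% of all genes called, 1 of 7 members at an unadjusted p under 0.05), Hep-Bmal1WT in cdHFD (14.6%, 4 of 7 members) and Hep-Bmal1KO in cdHFD (3.83%, 3 of 7 members). Without the libraries nearer to the opposite genotype, Gstm4 (adjusted p = 0.030) and Gstm7 (adjusted p = 0.0072) passed in Hep-Bmal1WT in cdHFD, where 13.3% of all genes did. In Hep-Bmal1KO in cdHFD Gstm4 (adjusted p = 0.034) then passed, where 3.29% of all genes did. The ZT10 trough of Gstm7 was seen in those groups too, with means of 74.1, 23.7 and 23.9 CPM at ZT10 that were the lowest of the 6 times. It was not particular to Gstm7. Gstm6 means as labelled were also lowest at ZT10 in every group, at 76.1 CPM in Hep-Bmal1WT and 218 CPM in Hep-Bmal1KO in NC, and at 53.7 and 51.8 CPM in cdHFD. The ZT10 means of Hep-Bmal1KO in NC include 1 library nearer to the opposite genotype. For Gstm6 it stood at 67.1 CPM, and the other 3 livers had a median of 257 CPM. At ZT2 the Gstm6 mean of that group was 259 CPM and its median 273 CPM, so its ZT10 trough rests in part on that library. Gstm1, Gstm2, Gstm3 and Gstm5 were lowest at ZT10 in some groups but not in all. Gstm4 was so only in Hep-Bmal1KO in NC, at a mean of 84 CPM beside 84.4 CPM at ZT14. That ZT10 mean included the same library, at 50.6 CPM, beside a median of 91 CPM for the other 3 livers. A difference in rhythm between the genotypes was not detected: 0 of 7 members passed in NC (0.392% of all genes called, 0 of 7 at an unadjusted p under 0.05; without the 4 NC libraries Gstm2, Gstm6 and Gstm7 had unadjusted p of 0.00079, 0.012 and 0.0087, with adjusted p of 0.060, 0.27 and 0.22 in edgeR) and 0 of 7 in cdHFD (0.424%, 2 of 7). These tests do not show that the rhythms were alike.

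The members were compared by the likeness of their log2 CPM over the 96 libraries, which share genotype, diet and time. Gstm6 and Gstm7, whose starts are 12.5 kb apart, had a Pearson r of 0.91, Gstm2 and Gstm3 (18.01 kb) of 0.80, and Gstm1 and Gstm4 (18.3 kb) of 0.78. These were the highest values, and each of these pairs is made of direct neighbors on the chromosome. The other direct neighbors had lower r, 0.60 for Gstm5 and Gstm7, 0.57 for Gstm1 and Gstm2 and 0.41 for Gstm3 and Gstm6. Gstm4 and Gstm6, whose starts are 91.7 kb apart, had r of 0.73. After subtracting the mean of each genotype, diet and ZT, the order was another. The highest r was then that of Gstm1 and Gstm3 (0.86), followed by Gstm2 and Gstm7 (0.81) and Gstm1 and Gstm4 (0.79), while Gstm6 and Gstm7 stood at 0.74. Gstm5 was least like the others, with r between -0.08 and 0.37 within groups. Libraries nearer to the opposite genotype enter these values, as do any reads shared between paralogs.

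**Figure D5:**
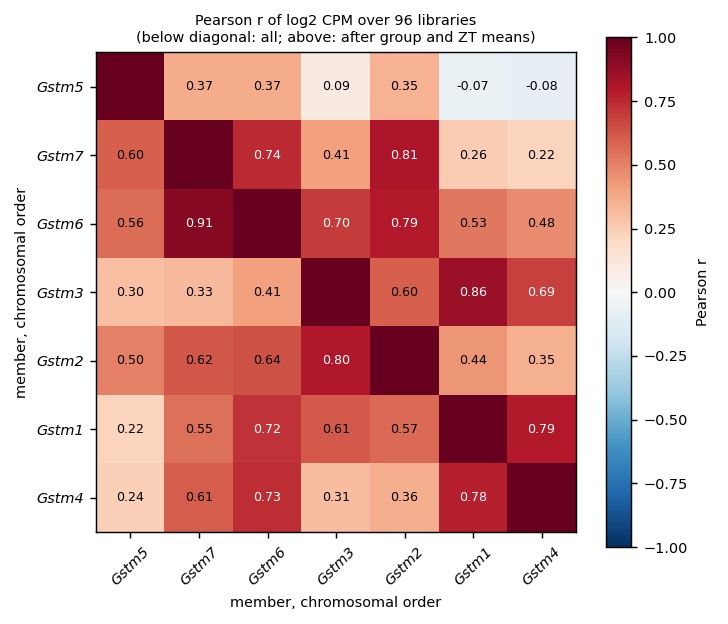
Pearson r of log2 CPM between Gstm genes over 96 libraries, in chromosomal order. Below the diagonal are values over all libraries, and above it values after subtracting the mean of each genotype, diet and ZT. Gstm6 and Gstm7 have r = 0.91 below the diagonal and 0.74 above it.

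Among 8999 genes with a mean of at least 5 CPM, those most like the 3 most abundant members over the 96 libraries were named. For Gstm1 these were Cyp2c55, a cytochrome P450 (r = 0.80), Gstm4 (0.78), Ephx1, the microsomal epoxide hydrolase that opens epoxides in the same detoxification route (0.77), Ociad2 (0.76) and Echdc2 (0.75). For Gstm3 they were Lpl, lipoprotein lipase (0.84), Gstm2 (0.80), Htatip2 (0.75), Cs, citrate synthase (0.74), and Slc39a11, a zinc transporter (0.73). For Gstm2 they were Ntrk2, a neurotrophin receptor (0.84), Gm379 (0.82), Loxl4, a lysyl oxidase (0.81), Lpl (0.80) and Gstm3 (0.80). Lpl was thus near the top for both Gstm2 and Gstm3.

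Glutathione transferases outside the mu class held more lower than higher genes. Of 18 measured genes (alpha, pi, theta, kappa, omega, zeta and microsomal forms, Hpgds, a prostaglandin D synthase of the sigma class, and Gstcd), 3 were higher, 8 lower and 7 not past the test in Hep-Bmal1KO livers in NC, beside 7% and 5.61% of all genes, with a median log2 difference of -0.31 beside -0.01 over all genes. Gsta4, which handles lipid aldehydes, was lower by 0.81 ± 0.12 and Gsta2 by 1.12 ± 0.21, while Gstp3 was higher by 0.56 ± 0.09 and Gstk1, a peroxisomal and mitochondrial form, by 0.39 ± 0.07. In cdHFD 1 was higher and 10 lower (median -0.33), beside 4.62% and 4.99% of all genes, Gsta2 by -0.84 ± 0.13 and Gstt1 by -0.40 ± 0.07 among them. The diet lowered 12 and raised 4 of the 18 in Hep-Bmal1WT, and lowered 10 and raised 5 in Hep-Bmal1KO, beside 55.7% and 61.9% of all genes called in either direction. Only Gstp3 passed the genotype by diet term (-0.52 ± 0.12), 1 of 18 genes, beside 3.04% of all genes. Between the sexes 6 of the 18 were higher and 4 lower in females, beside 8.99% and 8.24% of all genes. Gstp1 was lower by 1.62 ± 0.16 and Gstt3 higher by 1.02 ± 0.10.

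Genes of glutathione synthesis and use showed no common direction with genotype. Of 21 genes 4 were higher and 6 lower in Hep-Bmal1KO livers in NC, beside 7% and 5.61% of all genes. In cdHFD 2 were higher and 3 lower, beside 4.62% and 4.99%. Cbs, which starts the route from homocysteine to cysteine, was higher by 0.68 ± 0.10 in NC and by 0.37 ± 0.09 in cdHFD. Ggct, which acts in glutathione breakdown, was higher by 0.67 ± 0.16 and 0.34 ± 0.08, and Abcc4, an export pump, was lower by 1.34 ± 0.26 in NC. The diet raised Slc7a11, the cystine importer, from nearly no reads in NC (0.0611 CPM in Hep-Bmal1WT and 0.0179 CPM in Hep-Bmal1KO, means of 24 livers) to 2.5 ± 1.9 and 3.44 ± 1.89 CPM (SD). It lowered Cth, which releases cysteine, by 1.01 ± 0.11 (log2) in Hep-Bmal1WT and 1.51 ± 0.11 in Hep-Bmal1KO.

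Of 20 receptors and factors known to act on Gstm genes or on detoxification, 1 was higher and 6 lower in Hep-Bmal1KO livers in NC, and 0 higher and 8 lower in cdHFD, beside 12.6% and 9.61% of all genes called. The balance of directions was not tested. Among them was Hnf4a, a hepatocyte factor, which was lower by 0.29 ± 0.06 in NC and 0.25 ± 0.04 in cdHFD. Por, the reductase that serves the P450 enzymes, was lower by 0.74 ± 0.15 in NC. With the diet, 1 of the 20 was higher and 15 lower in Hep-Bmal1WT, and 2 were higher and 11 lower in Hep-Bmal1KO. Of all genes 28.7% were higher and 27% lower in Hep-Bmal1WT, and 32.4% and 29.6% in Hep-Bmal1KO. Against the direction of most of the list, Nfe2l2, which encodes NRF2, rose by 0.83 ± 0.09 in Hep-Bmal1WT and by 0.72 ± 0.08 in Hep-Bmal1KO. Hnf4a fell by 0.81 ± 0.06 and 0.77 ± 0.06. Females had 8 of the 20 higher and 2 lower, beside 8.99% and 8.24% of all genes. Cux2, a factor known as female-biased in liver, led the 20 (3.01 ± 0.27). These are mRNA levels and say nothing of the activity of the factors.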

How the data were processed

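Liver RNA of 96 mice was measured by BRB-seq. Per the labels and the study's methods, the authors demultiplexed the reads, aligned them with STAR to mm10 and counted reads per gene, and HTSeq and featureCounts are both named (versions not given in the sources used here). The deposited values are raw counts, and whether molecular identifiers were collapsed is not stated. The 5 special entries that are no genes stayed out of library sizes: a median of 18.1% of reads was listed as not aligned and 7.93% as without a feature. Library totals ran from 1861740 to 9718615 (median 6412078.5), which sets the precision of low genes, and Gstm5 had at least 28 counts in every library.

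Genes with at least 100 counts over all libraries were tested in edgeR 4.0.16 (R 4.3.3) with TMM scaling, the quasi-likelihood F test and Benjamini-Hochberg adjustment over 15548 genes, at 0.05. The SE of a log2 difference is its size divided by the square root of F. Genotype within diet and diet within genotype were fitted with ZT as a factor, genotype by diet and sex over all libraries, and rhythm as a 24-hour cosine within each genotype and diet, with amplitude and peak from values transformed by DESeq2 1.42.0. CPM was computed from the counts with TMM-scaled library sizes, and log2 CPM for correlations used a prior count of 2. Each library is 1 animal, and group labels came from the sample titles. Replicate numbers follow the order of the labels, which goes with sex. In NC, replicates 1 and 2 were male and replicates 3 and 4 female in every group. The same held in cdHFD, except at ZT2, where the sexes were reversed, and in Hep-Bmal1WT at ZT14, where replicate 3 was male. Leaving out a replicate number therefore takes libraries mostly from 1 sex. The steps were tested on simulated data.

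The members and the gene lists were chosen with earlier results of these data known. Named genes were all members, the 4 list genes with the smallest p per list and comparison, from which those printed were taken, and the 5 genes most like each of the 3 most abundant members. Alternatives were the DESeq2 Wald test, DESeq2 size factors, no filter or a stricter filter (10 counts in 24 libraries), each replicate left out, the 7 libraries nearer to the opposite genotype left out, sex as a covariate, each sex alone and other rhythm criteria. Leaving out 1 library labelled female with little Xist was added after seeing the data. Gene positions came from the RefSeq annotation of GRCm38.p6, and sequences were not used here. The genes next to the cluster are not reported here.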

Additional observations from a re-analysis of the deposited data

Results flagged for a closer look

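The size of the genotype difference depended on the diet for 6 members, by a test of the genotype by diet term in edgeR. The term was -0.76 (log2) for Gstm1, -1.28 for Gstm2, -1.84 for Gstm3, -0.68 for Gstm4, -1.15 for Gstm6 and -0.58 for Gstm7, each toward a smaller difference in cdHFD. Without the 7 libraries nearer to the opposite genotype all 6 were larger in size, from -0.64 for Gstm7 to -2.21 for Gstm3.

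Of the 168 groups of 4 livers (7 genes at 24 combinations of genotype, diet and ZT), 14 held 1 library far from the other 3 by Dixon's criterion. Chance alone gives about 1 in 20 groups, or 8.4 of 168. In 4 of the 14 that library was among the 7 nearer to the opposite genotype. For Gstm2 these were the Hep-Bmal1WT values of 372 CPM at ZT6 and 500.1 CPM at ZT18 in NC and of 285 CPM at ZT10 in cdHFD. The medians of the other 3 libraries of the same label were 98.4, 60.7 and 133 CPM, and those of the opposite label 511, 503 and 178 CPM. For Gstm6 it was the Hep-Bmal1WT value of 390 CPM at ZT18 in NC, beside medians of 128 CPM for its own label and 408 CPM for the opposite one.

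The other 10 came from libraries outside those 7. Gstm2 was high in 1 Hep-Bmal1WT liver at ZT22 in NC (101 CPM), low in 1 Hep-Bmal1KO liver at ZT6 in cdHFD (228 CPM) and high in 1 at ZT22 in cdHFD (443 CPM). Of these, the liver at 101 CPM lay nearer to the opposite genotype on clock genes alone, and the liver at 443 CPM on the 20 other genes alone. Gstm6 was low in 1 Hep-Bmal1KO liver at ZT14 in NC (383 CPM), where all 4 lay within a narrow range, and high in 1 at ZT6 in cdHFD (104 CPM). Gstm1 was high in 1 Hep-Bmal1WT liver at ZT18 in cdHFD (3309 CPM) and low in 1 Hep-Bmal1KO liver at ZT10 in cdHFD (1784 CPM). Gstm5 was low in 1 Hep-Bmal1WT liver at ZT10 in cdHFD (13.7 CPM). Gstm3 (2279 CPM) and Gstm4 (126 CPM) were both high in replicate 4 of the Hep-Bmal1KO livers at ZT22 in NC.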

How the results depend on the processing

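Of the differences of single members under each alternative, 532 kept their direction and side of the threshold, 19 lost and 15 gained a call, and 22 changed sign, none of which had passed. All 7 members passed for genotype in NC under every alternative run. For genotype in cdHFD, 1 member passed in males alone and 1 to 3 with a replicate left out. For genotype by diet, 3 passed in females alone and 3 to 6 with a replicate left out. For genotype by sex in NC, 1 passed without the 7 libraries nearer to the opposite genotype. Without those libraries 3 members were rhythmic in Hep-Bmal1WT in NC, beside 17.1% of all genes. In cdHFD 2 were in Hep-Bmal1WT (13.3%) and 1 in Hep-Bmal1KO (3.29%). With sex as a covariate the counts were 2 and 2 in Hep-Bmal1WT in NC and in cdHFD, beside 3486 and 2558 of 15548 genes. At an unadjusted p under 0.01 they were 1 in Hep-Bmal1WT in cdHFD, 1 in Hep-Bmal1KO in NC and 1 in Hep-Bmal1KO in cdHFD. Over all genes 2504, 1401 and 1316 passed at that level. With a replicate left out 0 to 2 members passed in Hep-Bmal1WT in NC, beside 1462 to 1984 genes. In Hep-Bmal1WT in cdHFD 0 to 1 did, beside 902 to 1494 genes. The causes were not tested. The single-sex and left-out fits held fewer samples, and the fits with a replicate left out also had a changed balance of the sexes.

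Signs changed as follows. For genotype in cdHFD, Gstm1 ran from -0.088 to 0.012 with a replicate left out and was 0.21 in females, and Gstm4 ran from -0.18 to 0.0067 and was 0.22 in females. For diet in Hep-Bmal1WT, Gstm1 ran from -0.30 to 0.094 with a replicate left out and was 0.022 without the 7 libraries and 0.094 in females, and Gstm5 was 0.016 in females. For genotype by sex in NC, Gstm2 ran from -0.48 to 0.041 with a replicate left out and was 0.0018 without the 7 libraries, Gstm5 ran from -0.14 to 0.075 and was 0.026, and Gstm6 was 0.054 without the 7 libraries. For genotype by sex in cdHFD, Gstm3 ran from -0.13 to 0.077 with a replicate left out and was -0.0036 without the 7 libraries, Gstm6 ran from -0.12 to 0.22 and was -0.0026, and Gstm7 ran from -0.11 to 0.28.

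Counts over all genes moved more. Genotype in NC went from 1960 to 940 without replicate 1, 1184 without replicate 2 and 578 in females, and genotype in cdHFD from 1494 to 959, 522 and 647, and 802 in males. Genotype by diet went from 473 to 103 and 163 without replicates 1 and 2, 153 in females and 919 without the 7 libraries. Sex went from 2679 to 1585 and 1680 without replicates 2 and 3. Genotype by sex went from 53 to between 8 and 22 with a replicate left out and to 94 without the 7 libraries in NC, and from 0 to 7 without replicate 1 and to 41 without the 7 libraries in cdHFD. Rhythm by genotype went from 61 to 0 with the stricter filter, 1 to 38 with a replicate left out and 179 without the 7 libraries in NC, and from 66 to 9 and 12 to 35 in cdHFD. Rhythmic genes fell from 2969 to as few as 1462 in Hep-Bmal1WT in NC, from 2264 to 902 in cdHFD, from 675 to 155 in Hep-Bmal1KO in NC and from 596 to 156 in cdHFD with a replicate left out. In Hep-Bmal1KO the cosine fit on transformed values gave 340 and 360, and an unadjusted p under 0.01 gave 1401 and 1316, in NC and cdHFD. DESeq2 size factors moved the median of all genes by at most 0.04 (log2), in the diet comparison in Hep-Bmal1KO, and any alternative by at most 0.05. Leaving out the library with little Xist kept the count of members between the sexes at 4. No paired analysis was possible because the labels give no replicate numbers that link animals across groups. Depth limits Gstm5 most, at 28 to 285 counts per library.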
